A study of Bos taurus with 8 samples.

Results

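Of 21475 probes on a bovine oligonucleotide array, 35 were well above background in muscle cells of beef bulls on at least 7 of 8 arrays and in muscle cells of dairy bulls on at most 1 of 8. They were chosen by this mark alone, which the scanner software sets for each spot in each colour, and a probe counted as marked when any of its spots was. 1 more probe met the criteria and was left out by the rule. Since the mark itself compares the beef breeds with the dairy breed, every difference from the dairy breed given for these 35 probes is a description, with no test. With the criteria turned round, 8 probes were well above background in the dairy breed on at least 7 arrays and in the beef breeds on at most 1.

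Each array carried RNA of cultured muscle cells of a beef bull in 1 colour beside RNA of cultured muscle cells of a Holstein Friesian (HF) dairy bull, the control, in the other. On 4 arrays Hereford (HER) cells were labeled with Cy3 (green) and HF cells with Cy5 (red), and on 4 arrays Limousin (LIM) cells were labeled with Cy5 and HF cells with Cy3. All cells came from semitendinosus, a hind limb muscle, of bulls aged 15 months, 4 of each breed, and all cultures grew untreated in medium with fetal bovine serum and were frozen while dividing, at 80% confluence. The cultures were enriched for myoblasts by preplating and remained mixtures of cells, so fewer cells of a type and less RNA per cell cannot be told apart in any value below. Each comparison had its own dye orientation and slide, so breed, dye, and slide cannot be told apart between LIM and HER, and the sources used here do not say which HF bull was on which array. Values were compared as log2 of the beef breed over HF after background correction, with an offset of 50 added to both colours, and loess. The offset draws the ratios of dim spots toward 0.

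Satellite cells are the stem cells of skeletal muscle. They divide as myoblasts, which then leave the cell cycle, fuse into myotubes, and turn on the genes of the contractile apparatus. That apparatus, the sarcomere, holds thin filaments of actin anchored at the Z-disc and thick filaments of myosin between them, and many of its proteins have a form made only in striated muscle. Such transcripts are low in dividing myoblasts and rise as the cells differentiate.

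Of the 35 probes, 17 could be given a gene symbol and 18 could not. 4 of the 17 genes belong to the contractile or metabolic machinery of striated muscle, MYOZ2, LMOD2, SMPX, and AMPD1. The other 13 are LRRN1, GLRB, NGFR, TACR2, RBFOX1, PREX2, MAP3K14, F2, DDO, ENPP4, MPPED2, ACBD7, and ATP6V1B1. The 17 genes lie on 15 different chromosomes by the assembly ARS-UCD2.0. In the beef channel 9 probes were well above background on 8 of 8 arrays and 26 on 7, and in the HF channel 22 were so on 0 arrays and 13 on 1. Of the 26 that missed an array, 22 missed HER replicate 3, 2 missed HER replicate 1 (A_73_110049 and A_73_118768), and 2 missed HER replicate 2 (TACR2 and RBFOX1), while all 35 were well above background in the beef channel of all 4 LIM arrays. The 7 probes on 8 arrays in beef cells and 0 in HF cells were those of LMOD2, GLRB, and ATP6V1B1, with A_73_118826, A_73_102911, A_73_109028, and A_73_115674, which have no symbol. HER replicate 3 was also the array with the fewest of all probes well above background in the beef channel, 68.8%. The share reached 73.2% or more on each of the other HER arrays, 80.9% to 85.2% in LIM cells, and 73.9% to 78.0% in HF cells.

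**Figure D1:**
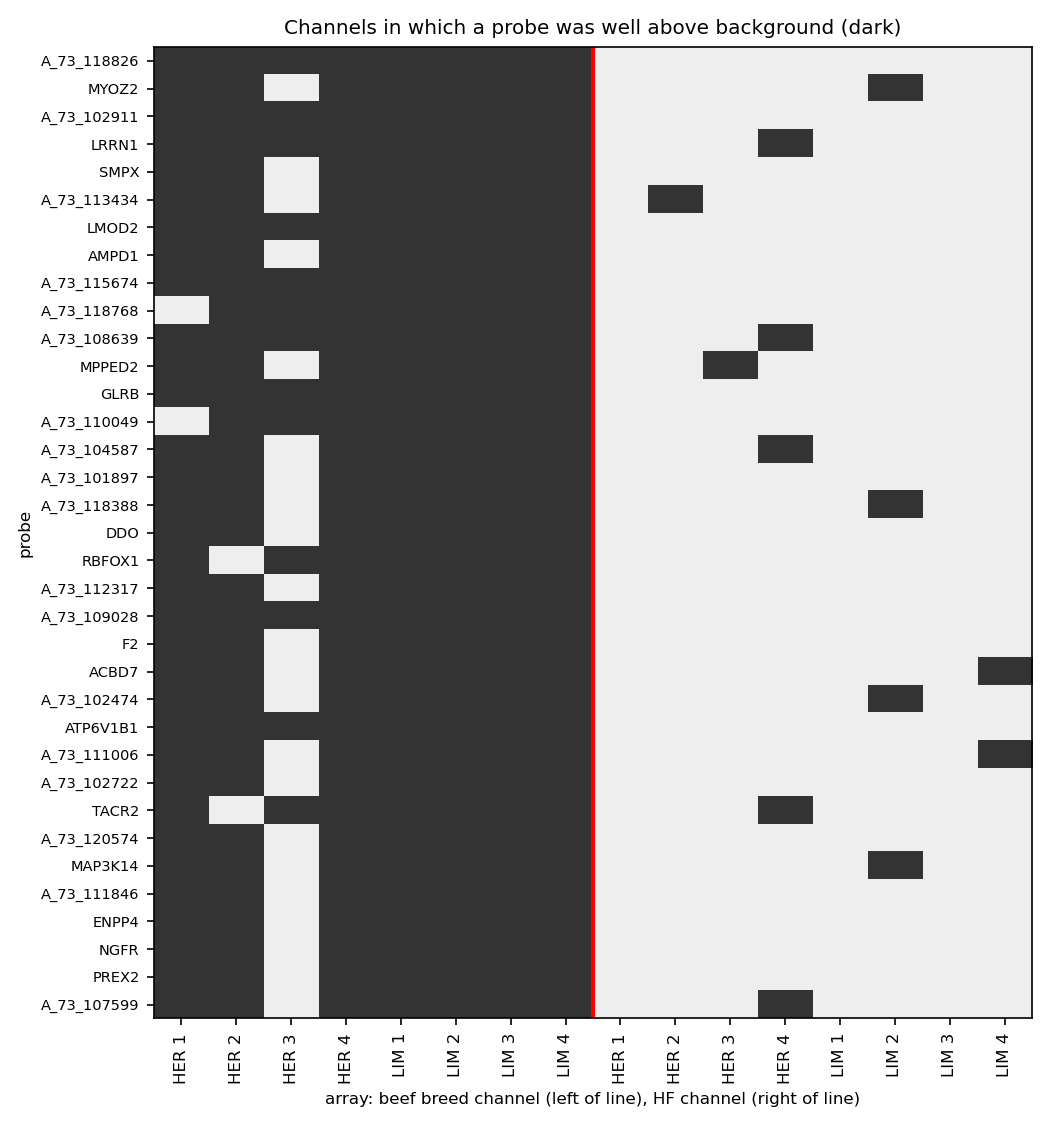
Each row is 1 of the 35 probes and each column 1 channel of 1 array, with the beef breed channels left of the red line and the HF channels right of it. Dark cells are channels in which the probe was well above background, and 22 of the 26 light cells on the left lie in HER replicate 3.

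MYOZ2 encodes a calsarcin, a Z-disc protein that binds calcineurin. Its brightness, the spot minus its local background in scanner units, was 261, 210, 168, and 287 in LIM cells (replicates 1 to 4) and 11.5, 16.5, 13, and 15.3 in the HF cells on the same arrays. In HER cells it was 73, 104, 20.3, and 214, and in the HF cells beside them 0.75, 15.8, 7, and 8.25. All beef values lay above all HF values, with HER replicate 3 the lowest of the beef values. The log2 ratio to HF was 1.57, 1.12, 0.83, and 1.76 on the LIM arrays (mean 1.32 ± 0.42 SD, n = 4) and 1.00, 1.26, 0.21, and 2.23 on the HER arrays (1.17 ± 0.83, n = 4). HF cells were well above background for MYOZ2 on 1 array, LIM replicate 2. Without the offset the means were 2.83 and 2.58. With local backgrounds that the software marked as outlying left as measured, they were 1.09 and 0.76.

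SMPX encodes a small protein of striated muscle found near the sarcolemma and sarcomere. Its brightness was 202, 196, 118, and 253 in LIM cells and 7.5, 10, 6.5, and 10.5 in the HF cells beside them. HER cells gave 50.5, 55, 11, and 106, and their HF partners 1.25, 10.3, 7.75, and 4.25. The groups did not overlap, though the HER replicate 3 value of 11 was close to the highest HF value of 10.5. The log2 ratio was 1.46, 1.26, 0.83, and 1.78 for LIM (1.33 ± 0.40, n = 4) and 0.72, 0.77, -0.03, and 1.50 for HER (0.74 ± 0.63, n = 4). No HF channel was well above background. The fold on this scale was 2.52 for LIM and 1.66 for HER, with HER cells well above background on 3 of 4 arrays. For these folds the HF side was the higher of the probe's own signal and the dimmest signal well above background on each array. The LIM fold equals the fitted mean ratio, so it carries the spread of the arrays and is no lower limit. Both folds hold for values after loess alone. Under median centring the LIM mean of SMPX was 1.12, and with marked local backgrounds as measured the HER mean was 0.52.

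LMOD2 encodes leiomodin 2, which starts actin filaments and lengthens the thin filaments of striated muscle. LIM cells gave a brightness of 91, 73, 64.5, and 168 and their HF partners 9, 7.5, 3.5, and 8.5. HER cells gave 27.5, 35.5, 45.3, and 48.3 and their HF partners -0.25, 4.5, 13, and 5.25, so the lowest beef value was above the highest HF value. The log2 ratio was 0.80, 0.68, 0.67, and 1.48 for LIM (0.91 ± 0.39, n = 4) and 0.43, 0.57, 0.55, and 0.73 for HER (0.57 ± 0.12, n = 4). As fitted on this scale these means are 1.87-fold and 1.48-fold. The LIM mean was 0.47 under median centring, and the HER mean was 0.27 with marked backgrounds as measured. LIM replicate 4 was set well apart from the other LIM arrays.

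AMPD1 encodes the AMP deaminase of skeletal muscle, an enzyme of the purine nucleotide cycle. Its brightness was 124, 110, 84, and 121 in LIM cells and 7.5, 13.3, 9.75, and 10.8 in the HF cells beside them. In HER cells it was 43.3, 41.5, 18.5, and 47.5, with 2, 7.75, 5, and 8.5 in HF cells. Here too the groups did not overlap, and HER replicate 3 was the lowest beef value. The log2 ratio was 1.05, 0.73, 0.54, and 1.14 for LIM (0.87 ± 0.28, n = 4) and 0.59, 0.61, 0.21, and 0.65 for HER (0.52 ± 0.20, n = 4). As fitted on this scale these means are 1.82-fold and 1.43-fold, with HER cells well above background on 3 of 4 arrays. The LIM mean was 0.51 under median centring, and the HER mean was 0.29 with marked backgrounds as measured.

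**Figure D2:**
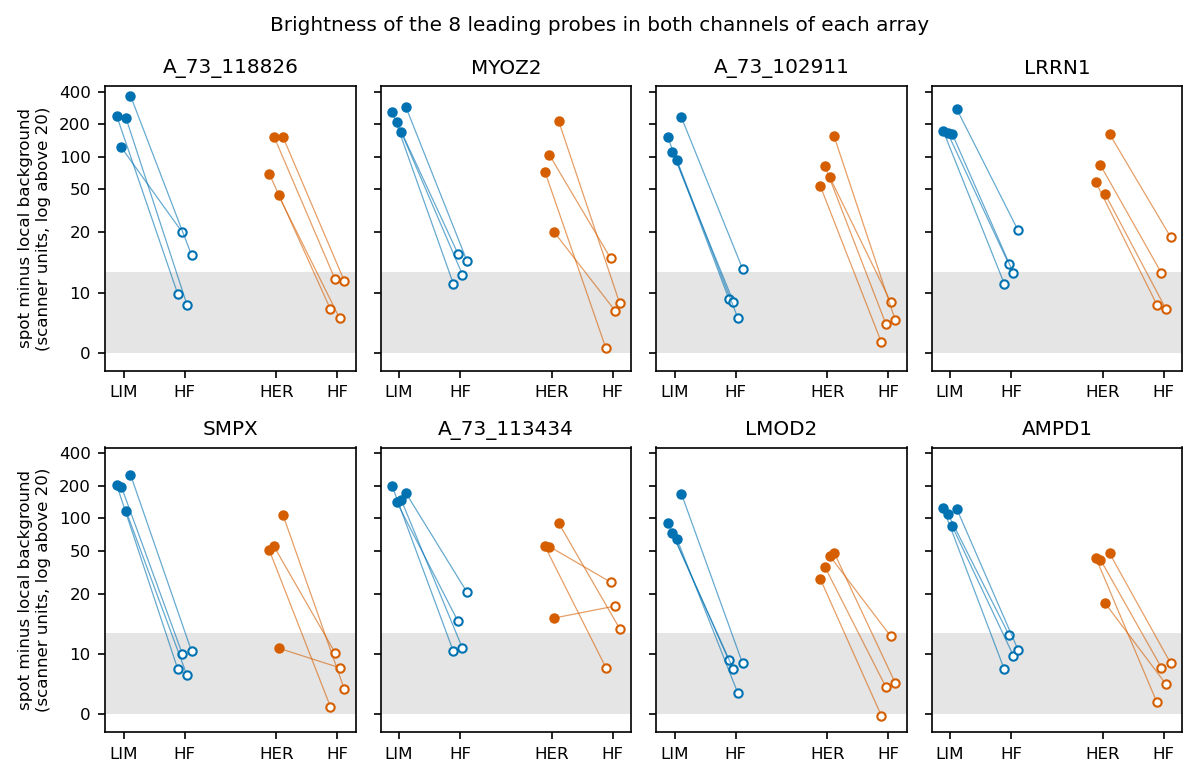
Brightness (spot minus local background, in scanner units on an axis that is linear to 20 and logarithmic above) of the 8 probes with the largest mean log2 ratio to HF, as filled points for the beef breed and open points for HF, with a line joining the channels of 1 array, LIM in blue and HER in orange. The grey band reaches 13.5, the highest 95th percentile of negative control spots in an HF channel of any array, and most open points lie in or just above it. Red and green brightness are not on a common scale.

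LRRN1, a leucine-rich repeat membrane protein first described in neurons, had a log2 ratio of 1.20, 0.97, 0.79, and 1.55 on the LIM arrays (1.13 ± 0.33, n = 4) and 0.64, 1.09, 0.74, and 1.69 on the HER arrays (1.04 ± 0.47, n = 4). Its brightness ran from 45.5 to 274 in beef cells and from 7.25 to 21 in HF cells, with no overlap, and its HF channel was well above background once, on HER replicate 4. The probe with the highest mean over the 8 arrays, A_73_118826 (accession BC133539), has no symbol here. Its log2 ratio was 1.54, 0.61, 1.21, and 1.97 for LIM (1.33 ± 0.57, n = 4) and 0.79, 1.75, 0.73, and 1.74 for HER (1.25 ± 0.57, n = 4). As fitted on the scale after loess these means are 2.52-fold for LIM and 2.38-fold for HER, and with marked backgrounds as measured the HER mean was 0.61. A_73_102911 (accession DV794491) had 1.17, 0.89, 0.74, and 1.59 for LIM (1.10 ± 0.37, n = 4) and 0.75, 1.23, 0.90, and 1.89 for HER (1.19 ± 0.51, n = 4). With marked backgrounds as measured, the HER means of LRRN1 and A_73_102911 were 0.56 and 0.63. The spread among replicates of these leading probes was large, up to 0.83 SD, and the highest array of LRRN1, A_73_102911, MYOZ2, SMPX, LMOD2, and AMPD1 was replicate 4 in both breeds.

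3 more of the 10 probes with the largest means had no symbol. A_73_113434 (transcript ENSBTAT00000056240) had a log2 ratio of 1.35, 0.84, 0.80, and 1.15 for LIM and 0.62, 0.52, -0.07, and 1.13 for HER, where its brightness on HER replicate 3 was 16 in HER cells and 18 in HF cells. Its groups therefore overlapped. A_73_115674 was the most even over LIM arrays, at 0.56, 0.51, 0.52, and 0.54, with 0.43, 0.49, 0.71, and 0.87 for HER. A_73_118768 (TC328306) had 0.45, 0.33, 0.40, and 0.77 for LIM and 0.18, 0.96, 0.52, and 0.77 for HER, the lowest mean of the leading 10. With median centring of the arrays instead of loess, its LIM mean was -0.02, while the other 9 of the leading 10 kept means above 0 in both breeds.

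**Figure D3:**
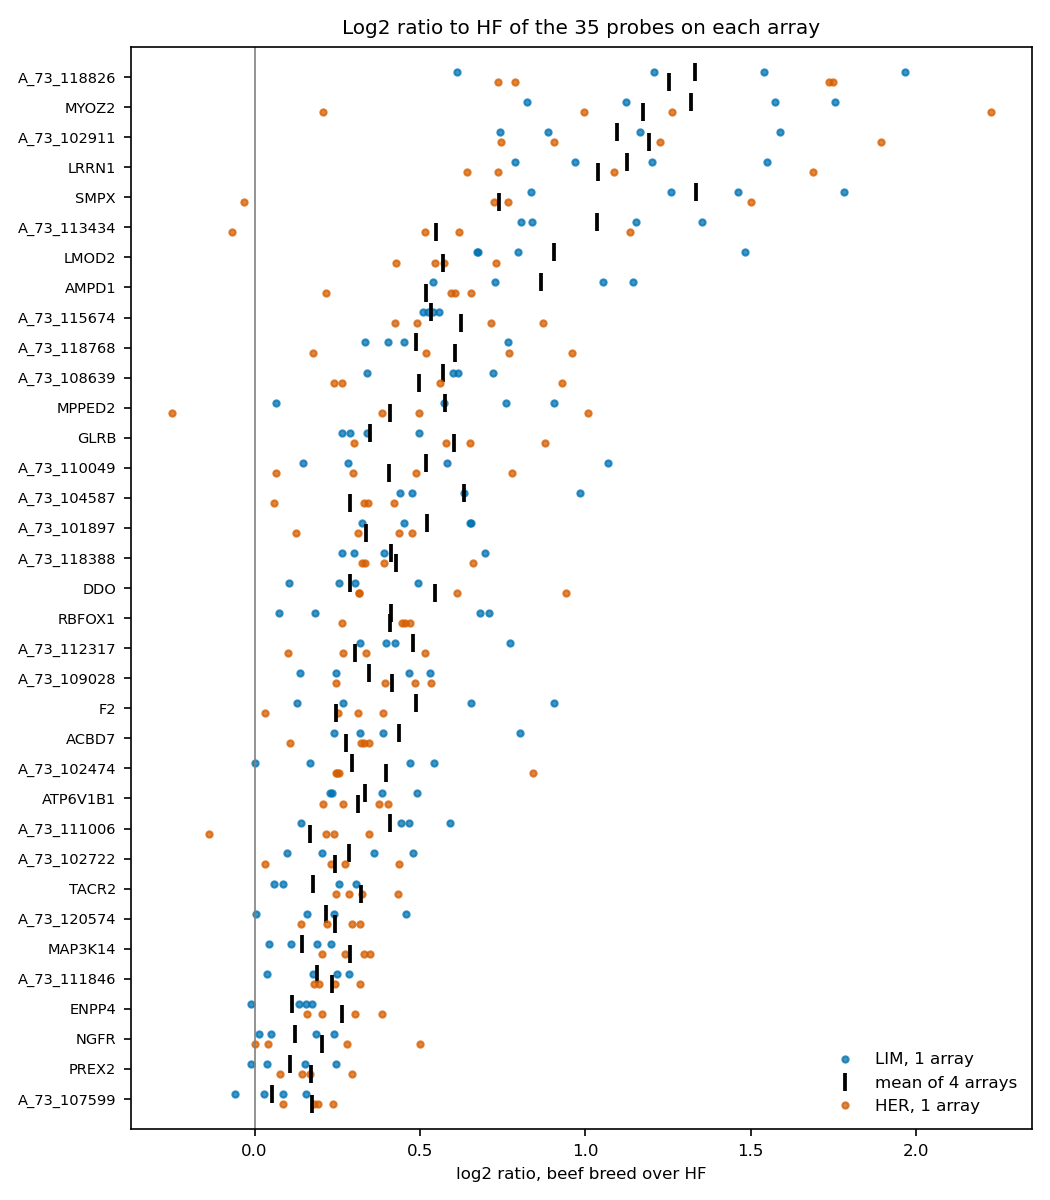
The log2 ratio of beef breed over HF is plotted for each of the 35 probes in order of their mean over 8 arrays, with LIM arrays as blue points, HER arrays as orange points, and the mean of 4 arrays as a black bar. 28 probes were above 0 on 8 of 8 arrays after loess, whereas with median centring in place of loess 21 of the 35 LIM means lay below 0.

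The remaining ratios were small. 5 of the 35 probes had a mean log2 ratio over the 8 arrays of at least 1, 11 of at least 0.5, and 24 of under 0.5, down to 0.11 for A_73_107599. The median over the 35 probes was 0.44 for LIM and 0.41 for HER, against 0.02 and 0.00 over the 17631 tested probes. The LIM median depended on the normalization. With median centring in place of loess it was -0.034 for LIM and 0.44 for HER, where the median over all tested probes was 0.32 and -0.02, so that these mostly dim probes lay below the typical probe on the LIM arrays. The 24 probes with a mean under 0.5 hold 12 of the named genes, and their values below are those after loess, with the mean under median centring after them.

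Among receptors and signalling proteins, GLRB, the beta subunit of the glycine receptor, had a mean log2 ratio of 0.35 ± 0.10 (SD, n = 4) for LIM and 0.60 ± 0.24 (n = 4) for HER, and -0.11 and 0.61 under median centring. This GLRB probe was 1 of the 3 probes with a symbol marked on 8 arrays in beef and 0 in HF cells. Its brightness was 32.8 to 117 in beef and 8 to 18.5 in HF cells. TACR2, the neurokinin 2 receptor, had 0.18 ± 0.12 and 0.32 ± 0.08, and -0.39 and 0.36 under median centring. MAP3K14, the kinase that starts noncanonical NF-kB signalling, had 0.14 ± 0.08 and 0.29 ± 0.07, and -0.43 and 0.34 under median centring. NGFR, the p75 neurotrophin receptor, had 0.12 ± 0.11 and 0.21 ± 0.23, and -0.47 and 0.26 under median centring. PREX2, an exchange factor for the GTPase Rac, had 0.11 ± 0.12 and 0.17 ± 0.09, and -0.47 and 0.23 under median centring. For all 5 genes the sign for LIM turned with the normalization and that for HER did not.

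RBFOX1, a splicing factor of muscle, heart, and neurons, had 0.68, 0.18, 0.08, and 0.71 on the LIM arrays and 0.44, 0.27, 0.46, and 0.47 on the HER arrays. Its means were 0.41 ± 0.33 and 0.41 ± 0.10 (SD, n = 4 each), and -0.16 and 0.45 under median centring. Its brightness was 23 to 69 in beef and -0.25 to 13.3 in HF cells, with no overlap.

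Among enzymes and transport proteins, DDO, which oxidizes D-aspartate, had 0.29 ± 0.16 for LIM and 0.55 ± 0.30 for HER (SD, n = 4 each), and -0.30 and 0.59 under median centring. MPPED2, a phosphodiesterase of the metallophosphoesterase family, varied most, from 0.06 to 0.91 on the LIM arrays and from -0.25 to 1.01 on the HER arrays, and its means under median centring were 0.19 and 0.49. F2, prothrombin, had 0.49 ± 0.36 and 0.25 ± 0.15, and -0.03 and 0.30 under median centring. ACBD7, an acyl-CoA binding protein, had 0.44 ± 0.25 and 0.28 ± 0.11, and -0.06 and 0.35 under median centring. ATP6V1B1, a B subunit of the vacuolar proton pump, had 0.33 ± 0.13 and 0.31 ± 0.09, and -0.23 and 0.38 under median centring. ENPP4, an ectonucleotidase, had 0.11 ± 0.08 and 0.26 ± 0.10, and -0.54 and 0.32 under median centring. Of these 6 genes MPPED2 alone kept a LIM mean above 0 under both normalizations.

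The 13 other probes without a symbol had mean ratios over 8 arrays between 0.11 and 0.53 after loess, with A_73_108639 the highest, and 9 of them had a LIM mean below 0 under median centring. Folds after loess, with the HF side set as for SMPX, were taken for members well above background in HF cells on 0 of the 4 arrays of a comparison. They ran from 1.04 to 2.52 for LIM (29 probes, median 1.4) and from 1.12 to 2.38 for HER (28 probes, median 1.33). The dimmest signal well above background exceeded the probe's own HF signal for 1 of the 29 and 3 of the 28. The other folds equal the fitted ratios and are no lower limits. These folds do not carry over to median centring, where 21 of the 35 LIM means lay below 0.

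Being short of the mark in HF cells was not the same as showing no signal there. The scanner software also sets a weaker mark, for a signal that is positive and significantly above background, and the HF channel carried it on at least 7 of 8 arrays for 20 of the 35 probes. At the other end stood LMOD2 with 1 array, SMPX, A_73_102911, and A_73_118768 with 2, and MYOZ2, AMPD1, MPPED2, and DDO with 4. Against the 153 negative control spots of each array, whose 95th percentile in the HF channel was 7 to 13.5, HF brightness was higher in at least 4 of 8 channels for 26 probes and in at most 1 for 5 probes, among them SMPX (0 channels), LMOD2 (1), AMPD1 (1), and ATP6V1B1 (1). The term "detected in beef but not HF cells" therefore holds for the stricter mark. By the weaker one, 1 of the 35 probes, that of LMOD2, was marked in HF cells on at most 1 array. With the weaker mark in the rule, 18 probes met it and 1 of them, LMOD2, was among the 35.

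All 35 probes were dim. Their median brightness was 52.8 to 69 on the LIM arrays and 23.5 to 38 on the HER arrays in the beef channel, and 6.25 to 17.3 in the HF channel. All probes well above background in the beef channel had a median of 379 to 717. Brightness depends on the probe, so it does not rank the transcripts. For 27 of the 35 probes the lowest of 8 beef values was above the highest of 8 HF values. This count sets red values against green ones. Like the separations given above for single genes, it follows in part from how the probes were chosen. No such count over all probes is given beside it, so it describes the choice and is no result about these probes.

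5 of the named genes had a second probe, and the probes of a gene did not always match. The second GLRB probe had larger ratios than the first, 1.13 ± 0.49 for LIM and 1.27 ± 0.29 for HER (SD, n = 4 each), and was well above background in HF cells on 3 arrays. The second ENPP4 probe was well above background in all 16 channels and had ratios of 0.54 ± 0.33 and 0.57 ± 0.23. The second probe of LRRN1 reached the mark on 4 arrays in beef cells and 0 in HF cells, at 0.28 ± 0.25 and 0.21 ± 0.09, and that of PREX2 on 7 and 6 arrays, at 0.10 ± 0.20 and 0.09 ± 0.21. For NGFR the second probe was well above background in all 16 channels. After loess it had the opposite sign, -1.94 ± 0.66 for LIM and -0.98 ± 0.30 for HER. The 2 NGFR probes carry 1 accession, so this gene has no settled direction here. None of the 5 second probes met the rule, and those of ENPP4, PREX2, and NGFR were well above background in HF cells on most arrays. For each of the 5 genes, GLRB and LRRN1 included, the mark described 1 probe and not the gene.

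Whether the transcripts differed between the beef breeds was a separate question, since the choice treated LIM and HER alike. The difference between LIM and HER in log2 ratio to HF was tested with limma over all 17631 tested probes, and 1 of them passed an adjusted p of 0.05 with a 1.3-fold difference, 0.00567% (ASIP, the agouti signalling protein of coat colour, -2.53, adjusted p = 0.0224, named after its value was seen). None of the 35 was called, and 0 of the 35 passed at an unadjusted p of 0.05 with the same fold, against 9.06% of all tested probes. Because the offset draws the ratios of dim probes toward 0, this 0 is no measure of likeness between the breeds. 19 members had the higher ratio in LIM and 16 in HER, and the differences ran from -0.26 for DDO to 0.59 for SMPX, the latter with a 95% interval of -0.16 to 1.35 (adjusted p = 0.46). The smallest p belonged to A_73_104587 (transcript ENSBTAT00000004564), with 0.34 ± 0.14 SE (unadjusted p = 0.0426 and adjusted p = 0.328, limma). AMPD1 followed, with 0.35 ± 0.16 SE (adjusted p = 0.384), and GLRB, with -0.25 ± 0.13 SE (adjusted p = 0.422). The 95% interval reached to either side by 0.18 to 0.95 over the 35 probes, with a median of 0.32, so differences of that size were not detectable with 4 arrays per breed. These intervals are unadjusted and a call needed an adjusted p, so larger differences could go uncalled as well. In simulated data of 17629 probes with 4 arrays per breed, a difference of 1 on the log2 scale was called for 55% of the changed probes. One of 2 was called for 89%. The changed probes were drawn at random from probes of any brightness, so these shares are not those of the 35 dim probes. Under median centring in place of loess, 14 of the 35 were called, all lower in LIM, where 8505 of all tested probes were called too.

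**Figure D4:**
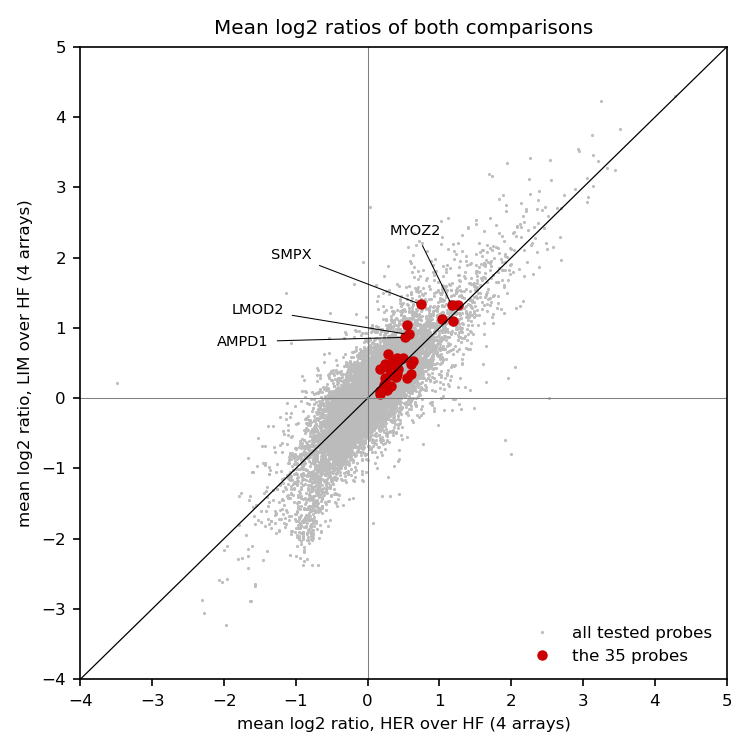
Mean log2 ratio of LIM over HF (vertical) against HER over HF (horizontal), each over 4 arrays after loess, for all 17631 tested probes in grey and the 35 probes in red, with a line where both are equal. The 35 lie above 0 on both axes after loess, between 0.05 and 1.33 for LIM and 0.17 and 1.25 for HER, and 21 of them fall below 0 for LIM under median centring. Both axes have HF as the other side of the ratio.

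The 4 muscle members were read against the muscle genes that are not among the 35. Of 204 genes in 8 lists of muscle genes, 108 had a probe, and 96 of these were tested and no members. In LIM cells 42 of the 96 were higher than in HF cells and 10 lower (limma, adjusted p at most 0.05 and at least 1.3-fold), where 13.6% of all tested probes were higher and 12.5% lower. In HER cells 32 were higher and 4 lower, where 9.26% and 7.63% of all probes were. Their medians were 0.38 and 0.30, against 0.02 and 0.00 over all tested probes. In these calls breed and dye coincided within each comparison and cannot be told apart. The HER calls rest on the treatment of local backgrounds marked as outlying, since with these used as measured 0 of the 96 were called in HER and 46 in LIM. Without HER replicate 1 or without HER replicate 2, 22 were called in HER in place of 36.

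By list, the thin filament had 7 of 9 genes higher and 1 lower in LIM, and 6 higher and 0 lower in HER, with TNNC2, the troponin C of fast muscle, at 3.54 and 2.93. The thick filament had 5 of 10 higher and 0 lower in each breed, led by MYH3, embryonic myosin, at 3.84 and 3.52. Of the Z-disc and sarcomere assembly genes, the list of MYOZ2, 4 of 18 were higher and 4 lower in LIM, and 3 higher and 1 lower in HER. KLHL41, which stabilizes the thin filament, was at 3.38 and 3.21. The 4 lower in LIM included NRAP, at -1.49 and -0.76, and MYOZ3, at -0.42 and -0.30. For the sarcoplasmic reticulum 4 of 10 were higher and 1 lower in LIM, and 3 higher and 0 lower in HER, with ATP2A1, the calcium pump of fast muscle, at 1.54 and 0.98. For the acetylcholine receptor and endplate 6 of 10 were higher and 1 lower in LIM, and 4 higher and 0 lower in HER, with CHRNG, the fetal gamma subunit, at 2.89 and 2.74. Myogenic regulators and fusion genes were higher for 8 of 14 and lower for 1 in LIM, and higher for 6 and lower for 0 in HER, with CDH15, M-cadherin, at 2.44 and 2.14. Muscle energy metabolism, the list of AMPD1, had 5 of 17 higher and 2 lower in LIM, and 3 higher and 2 lower in HER, with PGAM2, the muscle phosphoglycerate mutase, at 2.14 and 1.99. The dystrophin complex and sarcolemma, the list of SMPX, had 5 of 10 higher and 0 lower in LIM, and 4 higher and 1 lower in HER, with ITGA7, the laminin receptor of muscle, at 1.63 and 1.44. All values in this paragraph are mean log2 ratios to HF or counts of genes called, and 8 of the 108 genes were too dim to be tested.

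MYF5, MYOD1, MYOG, and DES were well above background in all 16 channels. Of 15 markers of satellite cells and myoblasts, 11 were so in all 16. Of the 13 tested, 7 were higher and 1 lower in LIM, and 4 higher and 0 lower in HER. The summed brightness of the 15 was 67600 to 157000 in LIM cells against 8000 to 24900 in the HF cells beside them. For HER cells it was 25800 to 54600 against 16800 to 47000. These sums and those below are scanner units before normalization and set red against green, which are not on a common scale. The colours were reversed between the LIM and the HER arrays. The sums therefore give no size of a difference between breeds. Markers of other cells moved as well. All counts of markers called here stand against 13.6% of all tested probes higher and 12.5% lower in LIM. In HER these shares were 9.26% higher and 7.63% lower. Of 14 fibroblast markers 7 were higher and 2 lower in LIM, and 6 higher and 3 lower in HER, with COL1A1 at 2.21 and 2.29 and PDGFRA at -1.30 and -1.13. Their summed brightness was 835000 to 1030000 in LIM cells against 102000 to 217000 in the HF cells beside them, and 353000 to 487000 in HER cells against 189000 to 404000. Of 8 markers of smooth muscle cells and pericytes 3 were higher in each breed and 0 lower. Endothelial markers had 0 of 8 called in either breed, and their summed brightness spread from 889 to 41900 in LIM cells, 386 to 14500 in HER cells, and 751 to 4780 in HF cells. Of 6 markers of Schwann and nerve cells 1 was higher and 2 lower in LIM, and 1 lower in HER. 1 of the lower calls in LIM and the lower call in HER were NGFR through its second probe, whose sign the member probe does not share after loess. ITGAM and C1QA of the leukocyte list, EPCAM and ESRP1 of the epithelial list, and CALCR of the satellite cell list did not reach the mark in any channel. Of 9 markers of dividing cells 3 were lower in LIM and 1 in HER, and none higher. Their summed brightness was still 48800 to 137000 in LIM cells against 28900 to 62000 in the HF cells beside them. The part of these kinds of cells in the values of the 35 probes was not tested.

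The edge of the choice was not sharp. Just outside it stood 127 probes, those on 6 to 8 arrays in beef and 0 to 2 in HF cells that were no members, with a median log2 ratio of 0.24 for LIM and 0.24 for HER. MYOT, the Z-disc protein myotilin, missed by 1 array (6 in beef and 0 in HF cells) and had means of 0.85 and 0.66, above those of most members. ABRA, an actin-binding protein of striated muscle, missed by 1 HF array (8 and 2) with means of 0.49 and 0.74. Both were picked here after their values were seen. Just inside, with 7 arrays in beef and 1 in HF cells, stood MYOZ2 with the large ratios given above and MAP3K14 and TACR2 with the small ones. When every spot of a probe had to be marked in place of any, 32 probes met the rule and 11 of them were among the 35, including MYOZ2, SMPX, AMPD1, LRRN1, and GLRB. With HER replicate 3 left out and all 7 remaining beef channels required, 35 probes met the rule and 31 of them were among the 35.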

How the data were processed

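The authors deposited, for each of the 8 arrays, the Feature Extraction 10.7.3.1 output. As deposited, it holds median intensities, with no correction yet made, in red and green for 44407 spots and for the local background around each, and marks for signal over background, for outlying spots, and for outlying backgrounds. They also deposited the log10 ratio, red over green, that this software made with its own background subtraction and dye normalization. The same ratio stands in the series table, with a median of 0 on every array. The member rule, the lists, and the settings were chosen with earlier results of these data known.

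Local backgrounds that the software marked as outlying were set to the median background of their array and colour, since on HER replicate 3 a red background reached 775167 against a median of 37. Intensities were then corrected with normexp (offset 50), normalized by loess with control spots at weight 0 and outlying spots left out, averaged over the spots of a probe (2 spots for 21465 probes and 6 for 10), and expressed as log2 beef breed over HF with limma 3.58.1 in R 4.3.3. The 17631 probes that the software marked as well above background in 4 or more of 16 channels were tested, and all 35 members passed this filter. 1 model over the 8 arrays (lmFit, eBayes) gave a mean for each comparison and LIM minus HER, and probes were called at a Benjamini-Hochberg adjusted p of at most 0.05 and a fold of at least 1.3. Precision is limited by 4 arrays per comparison, which the labels call biological repetitions. The model took the 8 arrays as independent, although their HF channels came from 4 HF bulls. Probes were given symbols by matching their accessions to RefSeq genes of assembly ARS-UCD2.0 (7793 of 17482 accessions matched, 8297 probes named). For the lists, the brightest probe of a gene was used. Coordinates were left out because the array was designed on a different assembly, and no sequences of the members were used here. Named are all members with a symbol, the 10 members with the largest mean, and the 3 with the smallest p. For each muscle list, 1 of the genes with the largest ratios among those read in all 16 channels is named, not always the largest. Each of these had ratios above 0. NRAP and MYOZ3 were named in addition, after their values were seen. Simulated data of 17629 probes served to test the steps. Alternatives covered the rule, the background, the normalization, the filter, the values, the test and threshold, weights for arrays, a block for the replicate number, and the omission of each array in turn.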

Additional observations from a re-analysis of the deposited data

Results flagged for a closer look

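The values of 22 members named with their ratios were searched for an array far from the other arrays of its breed, in 44 groups of 4 arrays, by the gap to the nearest array over the whole range, and 4 groups passed the 95% critical value of Dixon's test. Chance alone flags about 1 in 20 such groups. For LMOD2 in LIM, replicate 4 had a log2 ratio to HF of 1.48 against 0.67 to 0.80 on the others (gap over range 0.849). For AMPD1 in HER, replicate 3 had 0.21 against 0.59 to 0.65 (0.866). For RBFOX1 in HER, replicate 2 had 0.27 against 0.44 to 0.47 (0.875). For ACBD7 in HER, replicate 3 had 0.11 against 0.32 to 0.35 (0.895). The causes were not tested.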

How the results depend on the processing

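The number of members depended on the rule. It was 32 with every spot marked, 7 at 8 of 8 beef and 0 of 8 HF channels, 162 at 6 and 2, 18 with the positive and significant mark, and 8 with the rule turned. Leaving out 1 array and asking for at least 6 of 7 beef channels gave 38 to 97 probes, the most without HER replicate 3, followed by 83 without HER replicate 4, 65 without LIM replicate 4, 63 without HER replicate 2, and 56 without HER replicate 1. These criteria ask for fewer channels than 7 of 8.

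The median log2 ratio of the members was 0.44 for LIM and 0.41 for HER. It was 0.67 and 0.56 with no background subtracted, 2.43 and 2.02 in the log ratios of the scanner software and of the series table, and 1.39 and 1.13 with an offset of 0, a setting chosen after seeing the data. For LIM it was reversed, at -0.034, under median centring. For HER it was 0.17 with marked local backgrounds as measured. Leaving out each array gave 0.37 to 0.50 for LIM and 0.33 to 0.44 for HER.

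The count of all tested probes that differed between LIM and HER was 1. It was 8505 under median centring, 1597 at an unadjusted p, 1254 by the methods' t-test at an unadjusted p, 243 with array weights, 41 in the scanner software's log ratios and in the series table, 28 without a filter, 3 with the beef channel alone, and 0 with scaling between arrays or with marked backgrounds as measured. Leaving out each array gave 0 to 17, with 17 without LIM replicate 4 and 0 without HER replicate 1, HER replicate 3, LIM replicate 2, or LIM replicate 3. For the members it was 0 under these settings except median centring, which called 14. Of 453 values of LIM minus HER for named members under the alternatives, 443 kept their side of the threshold. The other 10 all arose under median centring, among them ATP6V1B1, which was reversed to -0.61 (limma, adjusted p = 0.0104). The muscle list genes called were 52 for LIM and 36 for HER. After Benjamini-Hochberg adjustment of the methods' t-test they were 7 and 0 (48 and 42 at its unadjusted p), and with marked backgrounds as measured 0 for HER (limma). Leaving out each array gave 42 to 56 for LIM and 22 to 47 for HER, with 22 without HER replicate 1 or 2. The causes were not tested.

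Arrays with the same replicate number were not paired, since their deviations correlated at -0.28 to 0.60. With the replicate number as a block, 0 of all tested probes and 0 members differed between LIM and HER, and 52 and 39 list genes were called. The dim signal limits the ratios of all 35 probes, 20 of which remained tested when at least 8 of 16 channels were required.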
